A study of Mus musculus with 3 samples.

Results

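The genes described here are 10 genes of lipid metabolism, Idi1, Cyp51 and Tm7sf2 of sterol synthesis, Chka, Pcyt1a and Agpat5 of phospholipid synthesis, the ceramide synthase gene Cers4, the fatty acid-binding protein genes Fabp4 and Fabp5, and the carnitine acyltransferase gene Crot. They are 10 of 38205 gene identifiers in each deposited table, were found by gene symbol with a single row in each library, and had the status OK in all 3. They were selected on the values of these same 3 libraries and on their ratios between genotypes, so the levels and ratios below describe them and test nothing. RNA was sequenced from LSK cells of mouse fetal liver at E14.5, strain C57Bl/6. LSK cells lack lineage markers and display Sca1 and c-Kit, a gate that holds blood stem cells and early progenitors. The tested embryos were homozygous or hemizygous for a DNMT3B7 transgene, and wild-type (WT) embryos were the comparison. DNMT3B7 is a shortened version of DNMT3B, an enzyme that methylates DNA, and the promoter that drives the transgene is not given in the sources used here. Sorted cells of 4 to 5 embryos were pooled for each genotype, which gave 1 library each. All differences below therefore lack replicates and are differences between libraries, and whether genotypes overlap cannot be judged.

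Cells make sterols from acetyl-CoA through the mevalonate pathway, in which Idi1 isomerises the isoprene unit. Cyp51 then acts on lanosterol, and Tm7sf2 on the product of Cyp51. Phosphatidylcholine, the main membrane phospholipid, is made from choline by choline kinase (Chka) and then the enzyme that makes CDP-choline (Pcyt1a), while acyltransferases such as Agpat5 form phosphatidic acid, the precursor of glycerolipids. Ceramide synthases join a fatty acid to a sphingoid base, fatty acid-binding proteins carry fatty acids through the cytosol, and Crot forms medium-chain acylcarnitines in peroxisomes. Dividing cells need sterols and phospholipids for new membranes.

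Values are the authors' FPKM, fragments per transcript length and library depth, divided by a common factor of 4238, and are called values below. On 10 chromosomes the share of genes with high values dropped at a fitted break. The 1433 genes compared were those from the chromosome start to this break, which held most of chromosome 16 and the first stretch of the others, and the mitochondrial mRNAs. A value of 1 was reached by 955 of them in some library. All 10 lipid genes lay within the segments. Agpat5 was the last gene before the fitted end of its segment on chromosome 8, and Xkr5 beyond it still had values of 32.9, 33.2 and 32.2 in the homozygous, hemizygous and WT library. The deposited tables hold no counts. From the steps between low values, depth was estimated at 2.31e+06, 3.01e+06 and 3.02e+06 fragments in the same order, taking each gene at its median transcript length. Outside the segments even Eef1a1, a translation factor of every cell, was listed at 0 in all libraries. The genes of Sca1 and c-Kit, Ly6a and Kit, and the gene Dnmt3b also lay there, so neither the gate nor the transgene could be checked. Of the fragments on the genes compared, mitochondrial mRNAs took 51.9% in the homozygous, 60.8% in the hemizygous and 64.5% in the WT library. Both estimates depend on the length taken: with the longest transcript of each gene, depth was 4.81e+06, 5.93e+06 and 5.68e+06 and the mitochondrial share 29.8%, 37.3% and 41.9%.

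Promoter sequences were taken from RefSeq (GRCm38.p6, 250 bases before to 50 after the annotated start), which held 7 of the 10 genes. The others, Fabp4, Fabp5 and Agpat5, are not shown. The first set shows the 3 sterol genes, since genes of sterol synthesis are known targets of the sterol-sensing SREBP factors, and Pcyt1a, which held a match to the sterol regulatory element those factors bind. Capitals mark matches to that element, searched as TCACNCCAC, and to the CCAAT box, known as the site of the factor NF-Y, on either strand. No 2 of the marked matches overlapped. All are written 5′ to 3′ on the gene's strand.
Idi1 (chr13:8885356-8885655, plus strand): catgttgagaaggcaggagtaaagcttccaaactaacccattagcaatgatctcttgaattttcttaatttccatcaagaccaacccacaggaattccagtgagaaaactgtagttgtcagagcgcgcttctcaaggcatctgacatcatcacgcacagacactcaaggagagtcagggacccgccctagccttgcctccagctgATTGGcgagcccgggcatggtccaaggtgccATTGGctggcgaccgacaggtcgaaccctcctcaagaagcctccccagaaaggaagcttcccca
Cyp51 (chr5:4104648-4104947, minus strand): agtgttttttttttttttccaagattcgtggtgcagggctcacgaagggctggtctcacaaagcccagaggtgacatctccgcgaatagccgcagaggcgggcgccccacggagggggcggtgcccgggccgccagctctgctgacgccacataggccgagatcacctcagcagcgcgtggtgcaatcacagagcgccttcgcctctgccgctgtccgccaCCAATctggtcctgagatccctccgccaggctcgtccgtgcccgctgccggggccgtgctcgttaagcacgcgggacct
Tm7sf2 (chr19:6067801-6068100, minus strand): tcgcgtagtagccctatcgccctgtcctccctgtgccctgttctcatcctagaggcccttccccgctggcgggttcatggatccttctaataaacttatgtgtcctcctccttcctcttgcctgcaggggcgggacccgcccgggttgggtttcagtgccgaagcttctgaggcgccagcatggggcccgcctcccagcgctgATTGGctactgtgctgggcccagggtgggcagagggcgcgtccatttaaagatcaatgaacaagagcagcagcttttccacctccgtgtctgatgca
Pcyt1a (chr16:32430671-32430970, plus strand): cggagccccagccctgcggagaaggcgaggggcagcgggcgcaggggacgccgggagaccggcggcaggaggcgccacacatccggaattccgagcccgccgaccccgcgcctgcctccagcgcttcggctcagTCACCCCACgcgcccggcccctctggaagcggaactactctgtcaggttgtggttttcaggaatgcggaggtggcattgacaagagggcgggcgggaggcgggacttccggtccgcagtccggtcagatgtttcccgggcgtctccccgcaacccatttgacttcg

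The element TCACNCCAC was present in the first of the 3 listed Pcyt1a promoters, 116 bases before the start, and in the overlapping second, and in none of the other 6 genes with an entry. Of 32851 promoters of the same length, 1.24% held it. Only these letters were searched, so a sterol regulatory element with other letters would not be found, and its absence is not shown. A CCAAT box was present in 5 of the 7 genes, Idi1, Cyp51, Tm7sf2, Chka and Crot, against 37.4% of all promoters. The GC box GGGCGG was present in all 7, against 35.7%. A gene was counted if any of its listed promoters held a match, whereas the shares over all promoters count each promoter singly. The third listed Pcyt1a promoter held no match to either box. Some GC boxes overlapped each other in Chka and Pcyt1a. These are matches of letters and not measured binding. The promoter of Cers4, which of the 10 genes had the highest ratio to WT in both transgenic libraries, is shown with its CG pairs, the sites of DNA methylation, in capitals. It held 14 such pairs, against a median of 7 over all promoters. Chka and the first Pcyt1a promoter held 33 each, Crot 29, Cyp51 28, Tm7sf2 15 and Idi1 9. Methylation itself was not measured here.
Cers4 (chr8:4493155-4493454, plus strand): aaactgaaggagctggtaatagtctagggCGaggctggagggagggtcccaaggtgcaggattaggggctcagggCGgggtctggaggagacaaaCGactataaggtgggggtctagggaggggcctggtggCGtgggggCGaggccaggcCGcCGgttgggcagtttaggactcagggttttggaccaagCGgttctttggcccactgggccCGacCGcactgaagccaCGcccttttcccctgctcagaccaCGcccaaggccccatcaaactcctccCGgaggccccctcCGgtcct

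The lipid genes spanned a wide range of levels, which can be compared between genes because values are per transcript length. From highest to lowest, the order in the hemizygous and in the WT library was Fabp5, Agpat5, Chka, Idi1, Pcyt1a, Crot, Cyp51, Tm7sf2, Cers4 and Fabp4. In the homozygous library Idi1 stood above Chka, Cyp51 above Crot and Cers4 above Tm7sf2. With 1 library per genotype the spread of these levels is unknown, so close neighbours in the order cannot be told apart. Fabp5 was by far the most abundant, above 95.7% of the 955 genes in the library where it ranked lowest, and made up 54.8% of the summed value of the 10 genes in the homozygous, 51.0% in the hemizygous and 56.0% in the WT library. Fabp4, of the same gene cluster on chromosome 3, was the least abundant. The other 8 lay between 43.3 and 253. The median of the 10 genes was 139 in the homozygous, 143 in the hemizygous and 119.9 in the WT library, against 56.4, 61.2 and 59.4 over the 955 genes. The highest value of a gene was under 1.25 times its lowest for 7 of the 10 with the common factor. Under scaling to the same sum this held for 1. With the common factor, the median of that ratio was 1.21 for the lipid genes. It was also 1.21 for the 931 compared genes with a value above 0 in all libraries. Under the same sum the medians were 1.5955 for the lipid genes and 1.4996 for the 931. The share of the 931 genes under 1.25 is not known, so nothing is read from the counts of 7 and 1.

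**Figure D1:**
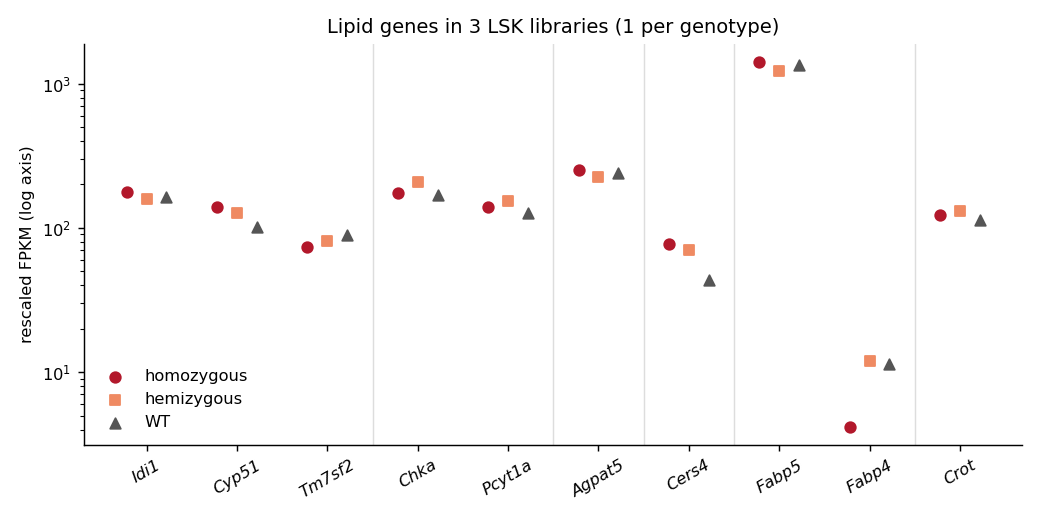
Rescaled FPKM (log axis) of the 10 lipid genes in the homozygous (circles), hemizygous (squares) and WT (triangles) library, 1 library per genotype and no error bars; grey lines separate sterol, choline, acyltransferase, ceramide, fatty acid-binding and carnitine genes. Fabp4 is at 4.19 in the homozygous library against 11.9 and 11.4 in the hemizygous and WT libraries, and Cers4 is at 77.3 and 69.7 in the transgenic libraries against 43.3 in WT.

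Within sterol synthesis the 3 genes differed in how they ran across the libraries. Idi1 (ENSMUSG00000058258, chromosome 13), which isomerises isopentenyl diphosphate, had values of 176 in the homozygous, 159 in the hemizygous and 164 in the WT library. Cyp51 (ENSMUSG00000001467, chromosome 5), the cytochrome P450 that demethylates lanosterol, had 139, 126 and 102. Tm7sf2 (ENSMUSG00000024799, chromosome 19), the sterol reductase that acts on the product of Cyp51, had 73.8, 81.5 and 88.8. With the common factor, Cyp51 was thus highest in the homozygous and lowest in the WT library, Tm7sf2 ran in the opposite order, and Idi1 varied least. Under the same sum all 3 ran from highest in the homozygous to lowest in the WT library, with log2 ratios of value + 1 for homozygous over WT of 1.00 for Cyp51, 0.66 for Idi1 and 0.29 for Tm7sf2. Relative to WT the ratio of Cyp51 was 1.37 in the homozygous library (95% counting interval 1.14 to 1.64) and 1.24 in the hemizygous library (1.04 to 1.49). That interval is exact, comes from the estimated fragments and covers counting error only, not embryos or library making. For Tm7sf2 the ratio was 0.831 (0.673 to 1.02) in the homozygous and 0.917 (0.752 to 1.12) in the hemizygous library, and for Idi1 1.07 (0.927 to 1.25) and 0.969 (0.836 to 1.12). With the principal transcript of each gene, which gives more fragments, the intervals of homozygous over WT left out 1, at 0.721 to 0.956 for Tm7sf2 and 1.01 to 1.15 for Idi1.

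The value of Cyp51 over that of Tm7sf2 within a library, which no scaling between libraries can alter, was 1.88 in the homozygous, 1.55 in the hemizygous and 1.15 in the WT library. Some reads of Tm7sf2 may belong to Vps51, a subunit of an endosomal tethering complex. Annotated exons of the 2 genes share 532 bases on the same strand, and 9.87% of the 50-base stretches of Tm7sf2 transcripts occur in Vps51 as well. Vps51 had values of 285, 359 and 333. Exons of Cyp51 share 166 bases with Akap9 on the opposite strand, and the strand setting of the library is not known. Akap9 was level at 120.2, 119 and 119. Agpat5, Cers4, Pcyt1a, Chka, Idi1 and Crot also share exon bases with genes on the opposite strand. The largest overlaps were 2043 bases of Agpat5 with Gm35934, 886 of Cers4 with Vmn2r-ps89 and 567 of Pcyt1a with Slc51a. Gm35934 and Vmn2r-ps89 are not listed among the deposited genes, and Slc51a stayed under 1. The part of Vps51 in the values of Tm7sf2, of Akap9 in those of Cyp51, and of these genes in the others was not tested. For Idi1, 17.7% of the 50-base stretches occur in other genes, all of them processed pseudogenes. Gm13502, the listed pseudogene among them, had a value of 0 in all 3 libraries.

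The choline pathway genes ran in the same order across the libraries. Chka (ENSMUSG00000024843, chromosome 19), which phosphorylates choline, had values of 174 in the homozygous, 206 in the hemizygous and 168 in the WT library. Pcyt1a (ENSMUSG00000005615, chromosome 16), the rate-limiting enzyme of the pathway, had 139.6, 154 and 127. With the common factor, both genes therefore peaked in the hemizygous library, as did 40.4% of the 955 genes, and lay close to WT in the homozygous library. This order turns when libraries are scaled to the same sum over the genes compared: the homozygous library is then highest, with log2 ratios of value + 1 to the hemizygous library of 0.11 for Chka and 0.21 for Pcyt1a, and to WT of 0.61 and 0.69. The ratios of the hemizygous library to WT were 1.23 (95% counting interval 1.11 to 1.36) for Chka and 1.21 (1.09 to 1.35) for Pcyt1a. The ratios of the homozygous library to WT were 1.04 (0.934 to 1.15) for Chka and 1.10 (0.981 to 1.23) for Pcyt1a. Chka over Pcyt1a within a library was 1.25, 1.34 and 1.32 in the homozygous, hemizygous and WT library, a ratio that no scaling between libraries alters.

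Agpat5 (ENSMUSG00000031467, chromosome 8), which adds an acyl chain to lysophosphatidic acid, had values of 253 in the homozygous, 225 in the hemizygous and 239 in the WT library. These are the highest levels after Fabp5, and with the common factor the hemizygous library was the lowest. The ratios were 1.06 (95% counting interval 1.02 to 1.10) for homozygous over WT and 0.941 (0.908 to 0.974) for hemizygous over WT. With 6428, 6320 and 6359 estimated fragments in the homozygous, hemizygous and WT library, intervals this narrow leave out 1 at differences of a few percent, while the spread between embryos or preparations is unknown.

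Cers4 (ENSMUSG00000008206, chromosome 8), a ceramide synthase of long-chain ceramides, had values of 77.3 in the homozygous, 69.7 in the hemizygous and 43.3 in the WT library. Both transgenic libraries lay above WT, and closer to each other than to it. The ratio to WT was 1.79 (95% counting interval 1.58 to 2.02) in the homozygous and 1.61 (1.42 to 1.82) in the hemizygous library, and between the transgenic libraries 1.11 (0.996 to 1.23). On the log2 scale of value + 1, used for every rule of size below, this was 0.82 and 0.68, short of a 2-fold difference, which is a log2 ratio of 1. Among the 790 genes that reached a value of 5 in the homozygous or WT library, Cers4 had the 15th highest ratio, and between hemizygous and WT the 16th of 794. Over Agpat5, further along the same segment, Cers4 stood at 0.305, 0.310 and 0.181 in the homozygous, hemizygous and WT library. The genes on either side of it, the chemokine gene Ccl25 and the zinc finger gene Zfp958, had values of 42.5, 61.0 and 35.4 and of 69.1, 66.5 and 69.1. Zfp958 was thus level across libraries, and Ccl25 was highest in the hemizygous library.

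The 2 fatty acid-binding protein genes differed in level and in pattern. Fabp5 (ENSMUSG00000027533), the form first known from epidermis and expressed in many tissues, had values of 1406 in the homozygous, 1213 in the hemizygous and 1344 in the WT library. Fabp4 (ENSMUSG00000062515), known from fat cells, macrophages and capillary endothelium, had 4.19, 11.9 and 11.4. Fabp4 was thus low in the homozygous library and at a common level in the other two, whereas Fabp5 varied by a factor of 1.16 at most with the common factor. The ratio of Fabp4 was 0.366 for homozygous over WT (95% counting interval 0.246 to 0.534) and 0.352 for homozygous over hemizygous (0.238 to 0.511), against 1.04 for hemizygous over WT (0.795 to 1.36). The log2 ratios of value + 1 were -1.26, -1.31 and 0.05, and the first became -0.78, short of 2-fold, when libraries were scaled to the same sum. For Fabp5 the ratios were 1.05 (1.02 to 1.08), 1.16 (1.13 to 1.19) and 0.903 (0.878 to 0.928) in the same order of comparisons. In bulk samples, fewer cells of a type and less RNA per cell cannot be told apart.

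The Fabp4 difference rests on few fragments. With the median of its annotated transcript lengths they came to 38.0, 119 and 109 in the homozygous, hemizygous and WT library, and with its principal transcript of 896 bases to about 11.2, 35.2 and 32.0. With the principal transcript the interval of homozygous over WT was 0.167 to 0.746 and that of homozygous over hemizygous 0.161 to 0.710. No 50-base stretch of Fabp4 transcripts occurs in another gene. Fabp5 shared 5.48% with 5 processed pseudogenes, whose values summed to 3.40, 6.14 and 2.64. Fabp5 over Fabp4 within a library was 336 in the homozygous, 102 in the hemizygous and 118 in the WT library. The other fatty acid-binding protein genes of the cluster on chromosome 3 were near or at the floor. Pmp2, the form of peripheral myelin, and Fabp9, the form of testis, were listed at 0 in all libraries, and Fabp12 was at 0.11, 0 and 0.72. Gm9833, listed between Fabp5 and Pmp2, was not at the floor and had 127, 121 and 107. Impa1, an inositol phosphatase gene just past the cluster, had 436, 381 and 346, highest in the homozygous library.

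Against 801 other genes, all those compared that reached 5 in some library, the 3 whose log2 ratios to WT lay nearest to those of Fabp4 over these 3 libraries were A930006K02Rik, a processed transcript, and the surrogate light chain genes Vpreb2 and Igll1. Their distances, over both ratios on the log2 scale, were 0.30, 0.36 and 0.36. Vpreb2 had values of 39.7, 88.4 and 107, Igll1 95.7, 190.3 and 236, and A930006K02Rik 9.06, 19.2 and 18.6 in the homozygous, hemizygous and WT library. That all 3 were low in the homozygous library, as Fabp4 was, follows from how they were picked. Likeness was measured over 3 libraries alone. For hemizygous over WT the log2 ratios were -0.28 for Vpreb2, -0.31 for Igll1 and 0.04 for A930006K02Rik, against 0.05 for Fabp4.

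Crot (ENSMUSG00000003623, chromosome 5), which moves medium-chain acyl groups to carnitine in peroxisomes, had values of 122 in the homozygous, 132 in the hemizygous and 112 in the WT library. Like the choline pathway genes, it was highest in the hemizygous library with the common factor and in the homozygous library under the same sum, where its log2 ratio of homozygous over hemizygous was 0.25 in place of -0.11, and that of homozygous over WT 0.68 in place of 0.12. Its ratio to WT was 1.09 (95% counting interval 1.00 to 1.18) in the homozygous and 1.17 (1.08 to 1.27) in the hemizygous library, and 0.929 (0.860 to 1.00) between homozygous and hemizygous.

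**Figure D2:**
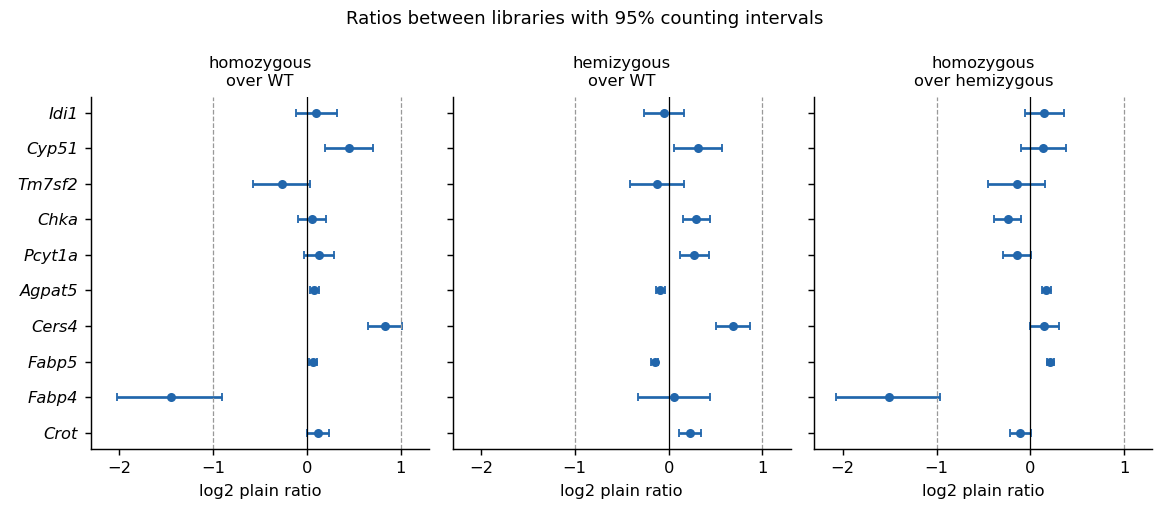
Plain ratios of the 10 lipid genes on the log2 scale (points) with 95% counting intervals (bars) for homozygous over WT, hemizygous over WT and homozygous over hemizygous; the dashed lines mark a 2-fold difference. Fabp4 lies left of the 2-fold line in both comparisons of the homozygous library and near 0 between hemizygous and WT, and Cers4 lies right of 0 in both comparisons with WT.

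The comparison of the homozygous library with WT asked which lipid genes differ when the transgene is homozygous. By the size rule, a log2 ratio of value + 1 of at least 1 in either direction, Fabp4 was lower, no lipid gene was higher, and 8 of the 10 lay within 1.5-fold. Of 940 genes measured, 2.23% were lower and 2.13% higher by the rule, 4.36% in either direction, and 87.9% lay within 1.5-fold. The genes were chosen on this contrast, so nothing is read from their share, their median or the number above 0. Their median log2 ratio was 0.09, with 8 of 10 above 0, against a median of -0.04 over all 940 genes, of which 43.8% were above 0. The counting interval of the plain ratio left out 1 for 6 of the 10, Cers4, Cyp51, Fabp4, Fabp5, Agpat5 and Crot. It did so for 5, these without Crot, with the shortest transcript of each gene. With the principal or the longest transcript it did so for 9, all but Chka. Intervals were computed for the 10 genes alone, here and in the comparisons below. The share of all genes measured whose interval leaves out 1 is therefore not known, and nothing is read from these counts.

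**Figure D3:**
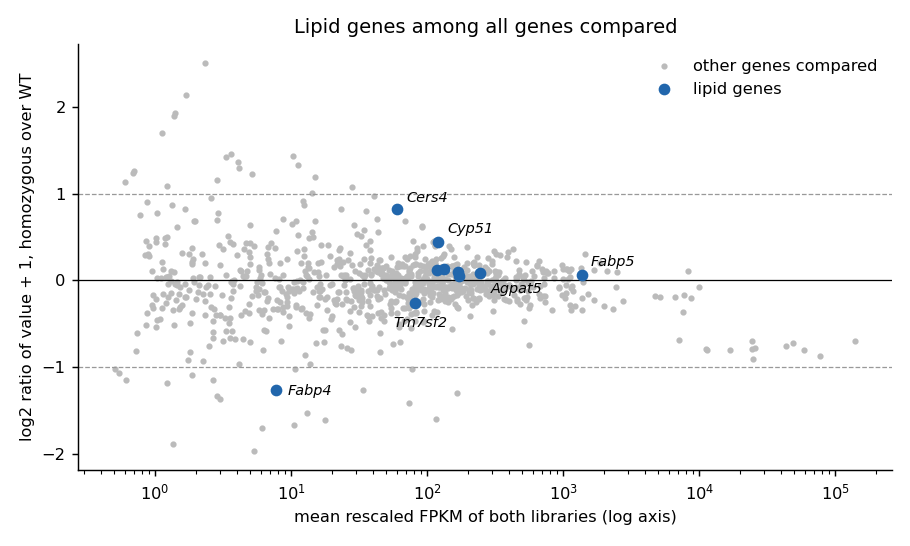
Log2 ratio of value + 1 for homozygous over WT against the mean value of both libraries (log axis) for the 10 lipid genes (blue) and the other genes measured (grey); dashed lines mark the size rule. Fabp4 lies below the lower line at a low level, Cers4 lies near the upper edge of genes of like level at 0.82, and the other 8 lie between -0.26 and 0.45.

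The comparison of the hemizygous library with WT asked the same of a hemizygous transgene. No lipid gene passed the size rule, against 2.77% of 939 genes measured, 1.81% higher and 0.958% lower. The 10 ratios ran from -0.15 for Fabp5 to 0.68 for Cers4 on the log2 scale, with a median of 0.14 and 6 above 0. The median over all genes measured was 0.02, and 54.0% of them were above 0. The counting interval left out 1 for 7 genes, again without a share over all genes to set beside it. Cers4, Cyp51, Chka, Pcyt1a and Crot were on the higher side, and Fabp5 and Agpat5 on the lower side. With the shortest transcript of each gene, 4 were left, Cers4, Crot, Fabp5 and Agpat5.

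Between the homozygous and the hemizygous library, Fabp4 was again lower and no lipid gene was higher by the size rule, against 2.85% lower and 1.69% higher of 947 genes measured, 4.54% in all. This comparison shares its libraries with the other comparisons and is no separate evidence. The median log2 ratio of the 10 genes was 0.02, with 5 above 0 and 5 below. Over all genes measured it was -0.05, and 39.3% of the genes were above 0. The counting interval left out 1 for 4 genes, Fabp4, Fabp5, Agpat5 and Chka. With the shortest transcript of each gene it did so for 3, these without Chka. With the principal transcript it did so for 8, and with the longest, which assumes more fragments, for 9 of the 10. Here too the share over all genes is not known. Over the 3 libraries, Cers4 and Cyp51 ran from highest in the homozygous to lowest in the WT library, an order that 13.3% of the 955 genes had, and Tm7sf2 ran the other way, as did 20.2%. The hemizygous library was highest for Chka, Pcyt1a, Crot and Fabp4 (40.4% of genes) and lowest for Idi1, Fabp5 and Agpat5 (25.5%). These orders hold for the common factor. Under the same sum, 9 of the 10, all but Fabp4, ran from highest in the homozygous to lowest in the WT library, as did 64.3% of the 955 genes.

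Other genes of lipid metabolism were covered thinly. Of 214 genes on 9 lipid lists, 29 lay in the segments, and 13 besides the 10 described here reached a value of 1. By the size rule 1 of these 13, Apod, was higher and none lower in the homozygous library against WT, none passed in the hemizygous library against WT, and Apod alone was higher between homozygous and hemizygous. Apod, a lipocalin that binds small lipids, had values of 5.78, 1.39 and 1.47, from about 11.1, 2.96 and 2.96 fragments. The medians of the 13 log2 ratios were 0.03, 0.09 and -0.09, against -0.04, 0.02 and -0.05 over all genes measured. No list had more than 4 genes that reached a value of 1, so no list is described by its median.

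On the scale of value + 1, all of the 13 but Apod lay within 1.5-fold in all 3 comparisons with the common factor. Under the same sum Ptplb passed the size rule as higher for homozygous over WT, at 1.05. The orders given for these genes hold for the common factor, by which 10 of the 13 were highest in the hemizygous library, while under the same sum 10 were highest in the homozygous and lowest in the WT library. In fatty acid oxidation, Cpt1a, the carnitine acyltransferase of mitochondria, had values of 72.9, 77.4 and 70.9 in the homozygous, hemizygous and WT library, and Ehhadh, a peroxisomal oxidation enzyme, 15.4, 17.5 and 14.3. Like Crot they were highest in the hemizygous library with that factor, by less than 1.5-fold. Slc25a1, the mitochondrial citrate carrier that feeds fatty acid synthesis, had 364, 389 and 383, Pcx, pyruvate carboxylase, 25.7, 36.9 and 31.9, and Ptplb, a dehydratase of fatty acid elongation, 38.9, 26.4 and 27.0. With the common factor Pcx was thus lowest and Ptplb highest in the homozygous library, both short of the size rule. Smpd4, a sphingomyelin phosphodiesterase, had 174, 182 and 169.9. With the common factor it was level where Cers4, the other sphingolipid gene in the segments, was above WT in both transgenic libraries.

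Of the remaining list genes, Pnpla6, a phospholipase that degrades phosphatidylcholine, had 53.4, 58.7 and 55.1, and Dgkg, a diacylglycerol kinase, 6.14, 8.24 and 5.83. Abcb4, the phosphatidylcholine translocator of bile canaliculi and the neighbour of Crot, had 98.0, 103 and 96.1. With the common factor these 3 were highest in the hemizygous library. Lrp5, a receptor of the LDL receptor family, had 165, 172 and 163, Osbpl11, an oxysterol-binding protein homolog, 41.5, 47.3 and 44.9, and Liph, a lipase of phosphatidic acid, 1.33, 1.14 and 1.84. Idi2, Fabp9, Fabp12, Pmp2, Pla1a and Lipi stayed under 1 in all libraries.

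Markers of cells in which Fabp4 is known to be abundant were looked at beside it. Of 6 fat cell markers, 2 lay in the segments. Adipoq, which encodes adiponectin, was at 0, 0.22 and 0 in the homozygous, hemizygous and WT library, and Retn at 1.16, 1.63 and 0.63. Of 9 macrophage markers none lay in the segments. Of 10 endothelial markers 3 did, with a summed value of 102, 70.1 and 54.3 in the same order of libraries. Nearly all of this sum came from Col4a1 and Col4a2, which encode collagen chains of basement membranes. Col4a1 was at 45.3, 31.8 and 25.5 and Col4a2 at 54.2, 36.4 and 27.2. Cldn5, the tight junction protein of endothelium, was at 2.14, 1.93 and 1.64, from about 10 estimated fragments or fewer in every library. The share of endothelial cells in the libraries was not tested. The 4 hepatocyte markers in the segments, of 10, summed to 4.82, 3.83 and 4.27, with Fetub and Hrg at 0 in every library. Of the 3 erythroid markers in the segments, of 8, the transferrin receptor gene Tfrc had 1014, 1416 and 1282, the heme synthesis gene Cpox 409, 443 and 442, and the carbonic anhydrase gene Car1 76.9, 65.1 and 64.8, so with the common factor Car1 was highest and the other two lowest in the homozygous library. The part of other cells in the Fabp4 values was not tested.

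The scaling of the libraries bears on the calls. When each library was brought to the same sum over the genes compared, the median log2 ratio of homozygous over WT moved to 0.49, against -0.04 with the common factor. Under this scaling Cers4 (1.37) and Cyp51 (1.00) passed the size rule as higher, Fabp4 did not pass (-0.78), Tm7sf2 turned to 0.29, and the split of all genes past the rule was 60 higher and 8 lower in place of 20 and 21. With the mitochondrial mRNAs left out of the sum, Fabp4 was at -1.20 and Cers4 at 0.89. Cers4 lay above the moved median and Fabp4 and Tm7sf2 below it. This follows from the scaling, since 1 factor per library shifts all genes alike apart from the pseudocount. Under median-ratio scaling, the ratios were -1.23 for Fabp4, 0.86 for Cers4, 0.48 for Cyp51 and -0.23 for Tm7sf2. For homozygous over hemizygous, Fabp4 passed the rule under both (-1.02 and -1.26). For hemizygous over WT the same sum moved the median to 0.22 and put all 10 lipid genes above 0, Fabp5 at 0.06 and Agpat5 at 0.12 among them.

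**Figure D4:**
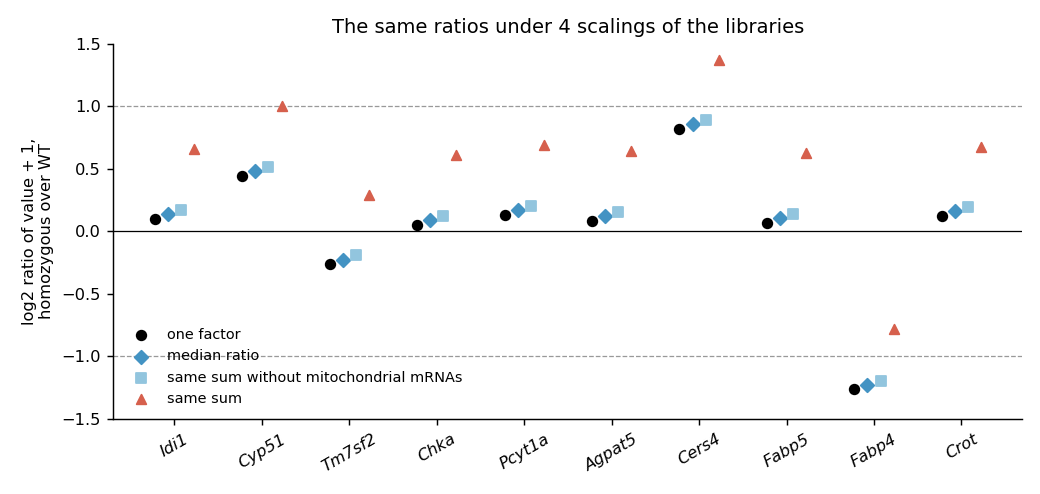
Log2 ratio of value + 1 for homozygous over WT of the 10 lipid genes with 1 common factor (black circles), median-ratio scaling (diamonds), the same sum without the mitochondrial mRNAs (squares) and the same sum over all genes compared (red triangles); dashed lines mark the size rule. The first 3 scalings lie close together for every gene, and the same sum lifts all 10, Cers4 to 1.37 and Fabp4 to -0.78.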

How the data were processed

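The deposited unit is FPKM, 1 value and 1 status per gene, per the file headers. The submitters' processing notes name TopHat2, Bowtie2, Cufflinks and mm9, without versions or settings; annotation and strandedness are not given there. Deposited FPKM summed to 3.58e+09, 4.31e+09 and 4.82e+09 in the homozygous, hemizygous and WT library over genes other than small RNA genes, so all were divided by 1 factor, 4238, that sets the mean sum to 1000000. Of 38205 gene identifiers, 95.4% were found in GENCODE M21, used for gene types, order and transcript lengths. A protein-coding gene was called high at a mean deposited FPKM of 200000 or more, and genes before a fitted break in the share of high genes along a chromosome were compared (a gain in log likelihood of at least 5, and at least 25% high before the break). Of constitutive genes left out of the fit, 24 of 26 in the segments were high, against 16 of 427 outside. Measured genes have the status OK in the 2 libraries compared and reach 1 in either.

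The unit of 1 fragment was the largest for which low values times effective length (transcript length less 200 bases) were whole within 0.05; 71.1%, 68.3% and 70.7% were whole in the homozygous, hemizygous and WT library. Counting intervals are exact 95% intervals (Clopper-Pearson) of fragments in 1 library among those in 2. The scripts were tested on simulated data. The genes, lists and rules were chosen with earlier results of these data known. Named genes are the 10 genes, list genes in the segments, and the 3 genes nearest to the gene with the widest range. Python 3.11.15, pandas 2.3.3 and scipy 1.17.1 were used.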

Additional observations from a re-analysis of the deposited data

How the results depend on the processing

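No paired analysis was possible because each genotype has 1 library, and no replicate could be left out. Under the 5 alternatives that can move a ratio, of scaling and pseudocount, 118 of 150 recomputed ratios of the lipid genes moved by less than their counting interval allows; the others change which genes are counted, not a ratio. Of the 32 that moved further, 24 arose under scaling to the same sum. The ratios past the size rule with the common factor, those of Fabp4 in comparisons of the homozygous library, kept their sign. Under the same sum, smaller ratios did change sign. Those were Tm7sf2 in every comparison, Agpat5, Fabp5 and Idi1 in hemizygous over WT, and Chka, Crot and Pcyt1a in homozygous over hemizygous. The number of lipid genes past the rule in homozygous over WT (1, Fabp4) was 2 under the same sum (Cers4 and Cyp51) and 0 with a pseudocount of 10, and it was 0 with a pseudocount of 10 in homozygous over hemizygous too. Restricting to chromosome 16 also gave 0 in both, since Pcyt1a is the lipid gene there. Of all genes measured, 41 passed in homozygous over WT (4.36%), 26 in hemizygous over WT (2.77%) and 43 in homozygous over hemizygous (4.54%). In the same order of comparisons the counts were 4, 1 and 1 with a pseudocount of 10, or 0.426%, 0.106% and 0.106%. At a value of at least 5 they were 22, 8 and 19, or 2.78%, 1.01% and 2.39%. Over all genes of the table, which adds genes outside the segments, they were 983, 1132 and 1172. Those are 13.57%, 14.63% and 15.05% of 7243, 7736 and 7789 genes measured. The same sum gave 68 in homozygous over WT, or 7.19%. A pseudocount of 0.1 gave 43 in hemizygous over WT (4.58%) and 73 in homozygous over hemizygous (7.71%). Chromosome 16 alone gave 14 (2.77%) and 26 (5.09%) in these comparisons. The cause of these shifts was not tested beyond what each setting changes by construction. The median estimate over the 10 genes and 3 libraries was 670 fragments with the median transcript length, 1997 with the longest and, as alternatives added after the data were seen, 1912 with the principal and 168 with the shortest transcript. Depth limits Fabp4 most, with the fewest fragments of the 10.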
